A study of Homo sapiens with 21 samples.

Results

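The cyclins of the cell cycle engine and their kinase partners CDK1 and CDK2 were followed across hTERT-HPNE cells exposed to H2O2 or to neocarzinostatin (NCS). The set was chosen by name and holds 10 genes of the 23368 listed in the deposited table: CCND1, CCND2, CCND3, CCNE1, CCNE2, CCNA2, CCNB1, CCNB2, CDK1 and CDK2. The line hTERT-HPNE is a nontransformed human pancreatic line immortalized with telomerase, and it was grown in medium with puromycin and freshly added EGF. The 7 groups were untreated cells taken at 0 h and cells taken 4, 8 or 24 h after 300 μM H2O2 or after 400 ng/ml NCS, a drug that breaks both DNA strands. Each group had 3 libraries labelled as biological replicates, 21 in all, and the medium was replaced when the treatment was given. No untreated libraries of 4, 8 or 24 h were analysed here, so a change since treatment and a change with time after fresh medium cannot be told apart in a comparison with untreated cells.

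D-type cyclins respond to growth factors and bind CDK4 and CDK6 in G1. E-type cyclins drive CDK2 at the entry into S phase, cyclin A2 pairs with CDK2 in S phase and with CDK1 later, and cyclins B1 and B2 pair with CDK1 to start mitosis. After DNA damage p53 raises the CDK inhibitor p21, the product of CDKN1A, and the DREAM complex of pocket proteins with E2F factors represses many genes of S phase and mitosis through short promoter elements, among them the cell cycle genes homology region (CHR), CCAAT boxes and E2F sites.

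Promoter sequences are shown for 4 members that fell by over 1 at 24 h after both treatments, with CCNE1, which fell less, beside them; these were picked after their values were seen. They are from RefSeq (GRCh38.p14), whose table held a window from 250 bases before to 50 bases after the start for 6 of the 10 members, 9 windows in all. CCND1, CCND2, CCNE2 and CDK2 had no entry. Each line holds the 150 bases before the start, 5′ to 3′ on the strand of the gene, and capitals mark the letters searched: TTTGAA or TTCGAA for the CHR, CCAAT for the CCAAT box, and TTCCCGC or else TTGGCGC or else TTCGCGC or else TTGCCGC for E2F, on either strand (a CCAAT box on the other strand reads ATTGG).
CCNA2, chr4:121823884-121824033, minus strand: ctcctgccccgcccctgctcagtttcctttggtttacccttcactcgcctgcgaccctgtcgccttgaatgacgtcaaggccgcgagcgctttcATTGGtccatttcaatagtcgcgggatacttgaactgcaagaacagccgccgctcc
CDK1, chr10:60778328-60778477, plus strand: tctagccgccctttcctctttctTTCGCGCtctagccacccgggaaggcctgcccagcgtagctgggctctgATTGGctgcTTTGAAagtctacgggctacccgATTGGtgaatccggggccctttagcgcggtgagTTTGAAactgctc
CCNB1, chr5:69167000-69167149, plus strand: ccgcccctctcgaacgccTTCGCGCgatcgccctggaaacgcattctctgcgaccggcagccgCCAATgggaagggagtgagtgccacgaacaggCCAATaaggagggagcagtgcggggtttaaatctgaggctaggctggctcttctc
CCNB2, chr15:59104996-59105145, plus strand: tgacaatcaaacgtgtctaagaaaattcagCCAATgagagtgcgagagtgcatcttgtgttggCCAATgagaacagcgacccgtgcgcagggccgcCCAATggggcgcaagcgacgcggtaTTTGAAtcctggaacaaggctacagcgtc
CCNE1, chr19:29811841-29811990, plus strand: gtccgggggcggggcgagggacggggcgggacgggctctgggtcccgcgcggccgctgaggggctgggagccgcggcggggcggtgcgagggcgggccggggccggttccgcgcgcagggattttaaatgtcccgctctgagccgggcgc

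The matches below are those of the whole windows, which reach beyond the stretches shown. The CCNB2 window held CCAAT boxes at bases -244, -120, -87 and -54 from the start, and a CHR at -29. The CCNB1 window held an E2F match at -132 and CCAAT boxes at -87 and -55. In the CDK1 window used, that of the downstream of 2 RefSeq starts, CHR matches lay at -69, -13 and 10, CCAAT boxes at -78 and -46, and E2F matches at -175 and -127. The CCNA2 window held 1 CCAAT box, at -56, and the CCNE1 window held none of the 3 motifs. CCND3, the member that moved least, is not shown. Its windows held a CCAAT box at -64 from one start and a CCAAT box at -136 from another. Of the 35116 RefSeq windows of this length, 16.4% held a CHR match, 13% an E2F match and 34.6% a CCAAT box, and 10.8% held at least 2 CCAAT boxes. These are matches of letters and no measure of binding, and no match says only that the letters searched are not in the window. Other spellings of these elements, in CCNA2 or any other window, were not searched.

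The deposited values are rLog values, read counts that DESeq2 placed on a log2 scale and normalized for library size, with differences shrunk most where reads are few. Sequencing depth cannot be read from them, since no counts are given, and levels of different genes are not compared because the scale is not per length. Library medians lay between 7.14 and 7.19. A single limma fit of the 7 groups gave the differences, with Benjamini-Hochberg adjusted p-values over the 19694 genes that varied, and a gene is said to rise or fall at an adjusted p under 0.05. The two-sided exact permutation test of a single gene has a floor of p = 0.1 with 3 libraries a group, which it reached wherever the ranges did not overlap. NES and VIM, markers of the line, lay between 11.78 and 12.28 and between 16.79 and 17.25. KRT18, KRT8 and SOX9 lay between 5.78 and 11.85, while KRT19, a duct keratin, was near absent at 0.58 to 0.73. Markers of islet, acinar, endothelial and epithelial cells lay at or below 2.42, PTPRC of leukocytes lay between 0.89 and 0.98, and CD68, of macrophages but found in many cells, lay between 9.93 and 10.57. The library H2O2 8 h replicate 2 stood apart, at Euclidean distances of 14.7 and 15.1 from the other replicates of its group, which were 11.4 apart, and members' results at 8 h are given again without it.

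By 24 h, the S-phase and mitotic members had fallen below untreated cells after both treatments, CCND2 and CCND1 had risen, and CCND3 stayed within 0.09 of its untreated mean. At 24 h after H2O2, 8 of the 10 members fell and 2 rose. Of all genes tested, 19.9% fell and 20.2% rose, so the share of members that fell was above the background and the share that rose was near it. At 24 h after NCS, 7 fell and 2 rose, against 18.4% and 19.6% of all genes. The median difference over the 10 members was -1.38 after H2O2 and -1.46 after NCS on the log2 scale, where the median over all genes was 0. Falls of more than 1 on the log2 scale were found for 6 members after each treatment, against 1.29% of all genes after H2O2 and 1.37% after NCS. CCND2 rose by more than 1 after H2O2, as 0.325% of all genes did. The treated and untreated ranges did not overlap for 10 members after H2O2 and 9 after NCS, which held for 59.7% and 44.5% of all genes. Both sets of comparisons share the untreated libraries. In these bulk samples, fewer cells of a type and less RNA per cell cannot be told apart.

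**Figure D1:**
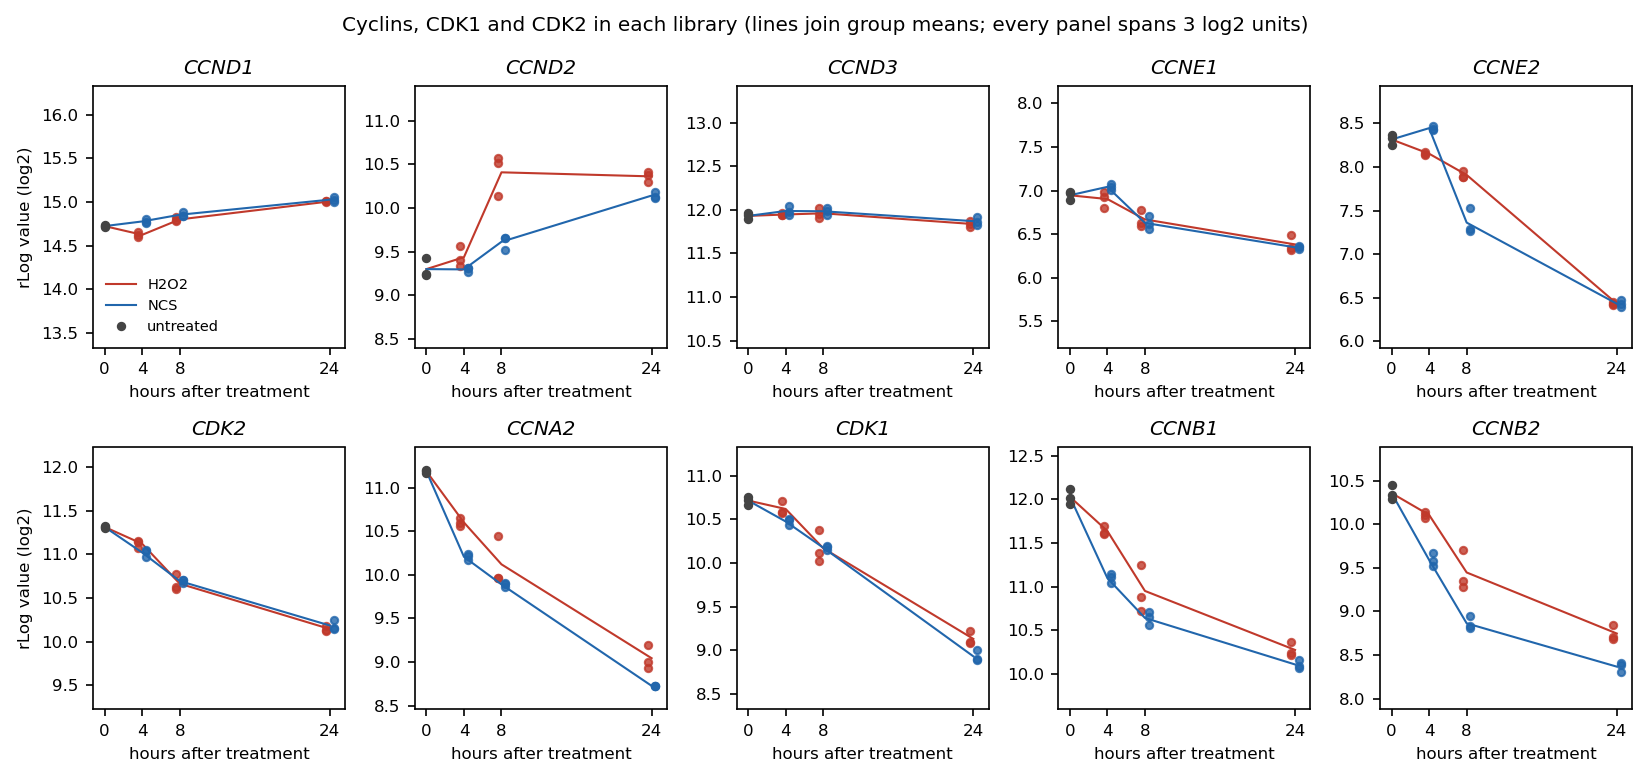
rLog value (log2) of each of the 10 genes in each library against hours after treatment, with untreated cells in grey at 0 h, H2O2 in red and NCS in blue. Points are libraries, drawn slightly left (H2O2) or right (NCS) of their time, lines join group means, and each panel spans 3 log2 units. By 24 h CCNE2, CCNA2, CDK1, CCNB1, CCNB2 and CDK2 lie below untreated cells in both treatments and CCND2 lies above them. At 4 h after NCS, CCNE2 lies above untreated cells and CCND2 level with them.

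Fewer members had changed at 4 h. After H2O2 at this time, 6 members fell and 0 rose, against 19.7% and 26.2% of all genes. After NCS, 5 fell and 0 rose, against 9.72% and 7.47%. By 8 h the count was 7 lower and 2 higher in each treatment, against 18.6% and 18.8% of all genes after H2O2 and 13.3% and 10.5% after NCS. No member passed a difference of 1 in either direction at 4 h. Of all genes 0.655% rose and 0.0406% fell so far after H2O2, and 0.0914% rose and 0.127% fell so far after NCS. At 8 h CCNA2 and CCNB1 had fallen by more than 1 after H2O2 (0.198% of all genes fell so far) and CCNA2, CCNB1 and CCNB2 after NCS (0.274% of all genes). CCND2 was the member that had risen by more than 1 after H2O2, as 0.32% of all genes had. Without H2O2 8 h replicate 2, 9 members still passed at 8 h after H2O2, and CCNB2 had fallen by more than 1 as well. The differences of members whose values without this library are not given further on were then -0.66 for CDK1, -0.70 for CDK2, -0.39 for CCNE2, -0.25 for CCNE1, 0.08 for CCND1 and 0.03 for CCND3, beside -0.55, -0.65, -0.40, -0.27, 0.07 and 0.03 with it.

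**Figure D2:**
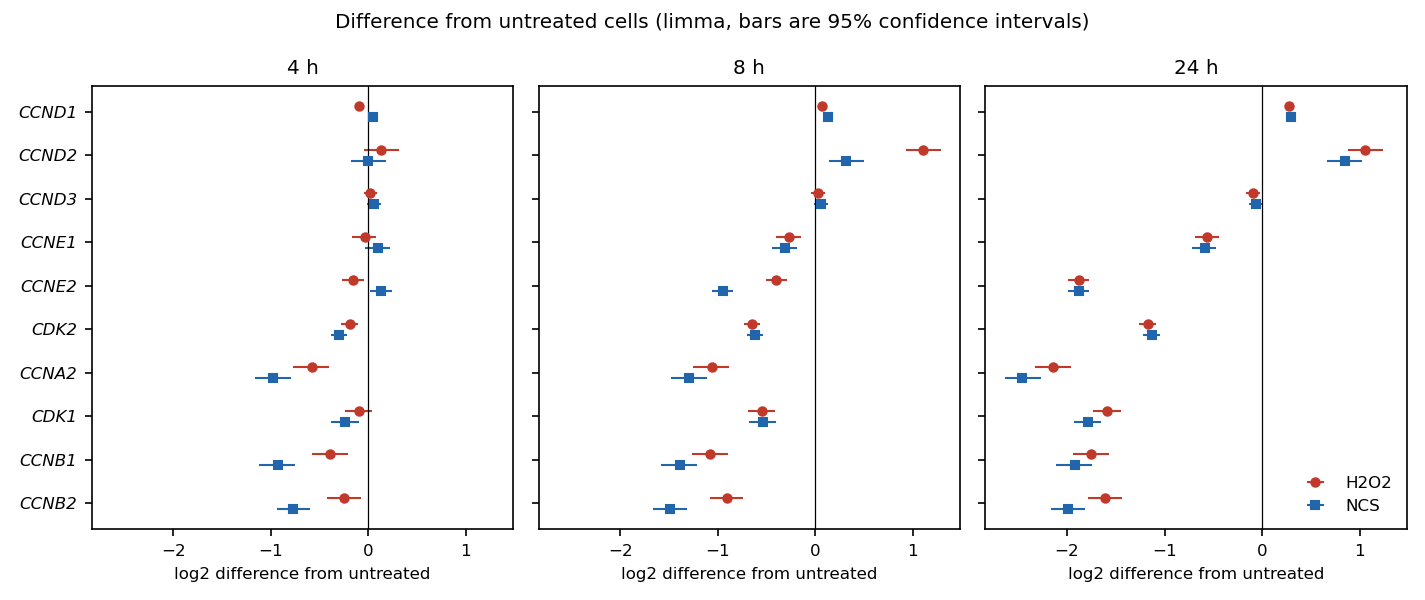
Log2 difference of each gene from untreated cells at 4, 8 and 24 h, with H2O2 as red circles and NCS as blue squares; bars are 95% confidence intervals from limma. CCNA2, CCNB1 and CCNB2 lie further left after NCS than after H2O2 at 4 h, and at 24 h the lowest points are those of CCNA2, -2.14 after H2O2 and -2.46 after NCS.

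Among the D-type cyclins, CCND2 rose most. Its values in untreated cells were 9.43, 9.23 and 9.24. After H2O2 they were 9.33, 9.41 and 9.57 at 4 h, 10.57, 10.14 and 10.52 at 8 h, then 10.41, 10.38 and 10.30 at 24 h. After NCS they were 9.31, 9.27 and 9.31 at 4 h, 9.66, 9.66 and 9.52 at 8 h, then 10.19, 10.13 and 10.11 at 24 h. All libraries of 8 and 24 h lay above all untreated ones, and those of 4 h overlapped them. The rise was 1.11 (SE 0.09) at 8 h and 1.06 (SE 0.09) at 24 h after H2O2, with adjusted p-values of 1.14e-08 and 6.49e-09 from limma. After NCS it was 0.32 at 8 h and 0.85 at 24 h (SE 0.09, adjusted p = 0.00997 and 1.65e-07, limma). In the order of group means, H2O2 at 8 h and at 24 h stood highest with overlapping ranges. NCS at 24 h came next and overlapped neither H2O2 at 24 h nor NCS at 8 h. The lowest H2O2 library of 8 h, at 10.14, lay within the NCS range of 24 h. NCS at 8 h, H2O2 at 4 h, untreated and NCS at 4 h followed, each overlapping its neighbour. The library that stood apart was the lowest of its group here, and without it the rise at 8 h after H2O2 was 1.24. CCND2 shares 15.26% of its exon bases with AC008012.1 on the same strand.

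CCND1 encodes cyclin D1, the main D-type cyclin of many epithelial and fibroblast cultures. It had values of 14.71, 14.74 and 14.72 in untreated cells, of 15.01, 15.00 and 15.01 at 24 h after H2O2, and of 15.06, 15.02 and 15.00 at 24 h after NCS. Every library of 24 h was above every untreated library. The rise was small, 0.28 after H2O2 and 0.30 after NCS (SE 0.02, adjusted p = 2.68e-10 and 1.23e-10, limma). At 4 h the gene had first fallen by 0.10 after H2O2 (adjusted p = 0.000181), with values of 14.65, 14.62 and 14.60, while after NCS the difference was 0.05 and did not pass (adjusted p = 0.0634). The exons of CCND1 share 11.28% of their bases with LTO1 on the opposite strand. LTO1, listed in the deposited values as ORAOV1, differed from untreated cells by 0.28, 0.12 and 0.16 at 4, 8 and 24 h after H2O2. After NCS it differed by 0.19, 0.20 and 0.08. The part of shared reads in the CCND1 values was not tested. The library kit marks strand, but the strand setting of the counting is not given in the sources used here, so counts of such overlapping genes are uncertain.

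CCND3, the third D-type cyclin, moved least. Its 21 values lay between 11.80 and 12.04. The difference from untreated cells was -0.09 at 24 h after H2O2 (SE 0.03, adjusted p = 0.0387, limma) and -0.06 after NCS (adjusted p = 0.217), with the NCS range overlapping the untreated one. The H2O2 call was lost without untreated replicate 2 or 3 or without H2O2 24 h replicate 2 or 3, where the difference lay between -0.09 and -0.07 and the adjusted p between 0.0779 and 0.162. It was lost too under quantile normalization (-0.05, adjusted p = 0.31).

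The E-type cyclins activate CDK2. CCNE2 moved little at 4 h and then dropped. Its untreated values were 8.37, 8.33 and 8.25. The H2O2 libraries held 8.14, 8.17 and 8.15 at 4 h, 7.89, 7.89 and 7.95 at 8 h, then 6.45, 6.42 and 6.43 at 24 h. The NCS libraries held 8.47, 8.43 and 8.44 at 4 h, 7.27, 7.53 and 7.29 at 8 h, then 6.43, 6.48 and 6.39 at 24 h. At 4 h the H2O2 libraries were below and the NCS libraries above all untreated ones, at 8 h the NCS libraries were the lower ones, and at 24 h the treatments overlapped. The difference at 24 h was -1.88 (SE 0.05) in each treatment, 27.1% of the untreated level on the rLog scale, with adjusted p-values of 3.45e-15 and 2.64e-15 (limma). At 4 h it was -0.16 after H2O2 (adjusted p = 0.0157) and 0.13 after NCS, which did not pass (adjusted p = 0.104). The H2O2 call at 4 h was lost without untreated replicate 1 (-0.13, adjusted p = 0.0739) and under quantile normalization (-0.11, adjusted p = 0.112).

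CCNE2 shares 47.47% of its exon bases with INTS8, a subunit of the Integrator complex on the opposite strand. INTS8 differed from untreated cells by -0.14, -0.30 and 0.04 at 4, 8 and 24 h after H2O2 and by -0.06, -0.01 and -0.04 after NCS. The fall of CCNE2 at 24 h thus came at times when INTS8 lay within 0.04 of its untreated mean. The part of shared reads in the CCNE2 values was not tested.

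CCNE1 fell less. Untreated values were 6.89, 6.98 and 6.97, those of 24 h after H2O2 were 6.49, 6.32 and 6.34, and those of 24 h after NCS were 6.37, 6.33 and 6.35. The treated and untreated ranges did not overlap at 24 h. The gene fell by 0.56 after H2O2 and by 0.59 after NCS (SE 0.06, adjusted p = 3.08e-07 and 1.58e-07, limma). At 4 h it was -0.04 after H2O2 (adjusted p = 0.618) and 0.10 after NCS (adjusted p = 0.341), and neither passed.

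CDK2, the kinase of cyclins E and A, fell over each interval in both treatments. Untreated libraries held 11.30, 11.31 and 11.33. After H2O2 the libraries of 4 h held 11.07, 11.15 and 11.14, those of 8 h 10.60, 10.77 and 10.62, and those of 24 h 10.13, 10.18 and 10.12. After NCS the libraries of 4 h held 11.05, 11.04 and 10.97, those of 8 h 10.67, 10.70 and 10.71, and those of 24 h 10.14, 10.16 and 10.25. No treated library reached the untreated range, and the treatments overlapped from 8 h on. At 24 h it fell by 1.17 after H2O2 and by 1.13 after NCS (SE 0.04, adjusted p = 2.84e-14 and 4.08e-14, limma), to 44.3% and 45.6% of the untreated level on the rLog scale. CDK2 shares 11.76% of its exon bases with AC025162.1 on the opposite strand.

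CCNA2, the cyclin shared by S phase and G2, had the lowest difference of the 10 genes at 24 h after each treatment. Untreated libraries held 11.19, 11.17 and 11.20. H2O2 libraries held 10.59, 10.65 and 10.56 at 4 h, 9.96, 10.44 and 9.96 at 8 h, then 9.20, 9.00 and 8.93 at 24 h. NCS libraries held 10.21, 10.24 and 10.17 at 4 h, 9.90, 9.91 and 9.86 at 8 h, then 8.73, 8.73 and 8.72 at 24 h. Every treated library lay below every untreated one, and in the order of the 7 groups the ranges of NCS at 4 h and H2O2 at 8 h were the neighbouring pair that overlapped. After H2O2 it fell, with differences of -0.58, -1.06 and -2.14 at the 3 times (SE 0.09, adjusted p = 2.53e-05, 2.77e-08 and 4.96e-13, limma). The differences after NCS were -0.98, -1.29 and -2.46 (SE 0.09, adjusted p = 2.5e-07, 3.51e-09 and 7.71e-14, limma), to 18.2% of the untreated level at 24 h against 22.6% after H2O2. Without the library that stood apart, whose value was the highest of its group, the difference at 8 h after H2O2 was -1.22. CCNA2 shares 5.15% of its exon bases with EXOSC9 on the opposite strand, which differed by -0.52 at 24 h after H2O2 and by -0.71 after NCS.

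CDK1, the kinase that drives mitosis, passed as lower at 4 h after NCS but not at 4 h after H2O2. Its values were 10.72, 10.67 and 10.76 in untreated cells. H2O2 values were 10.57, 10.71 and 10.58 at 4 h, 10.02, 10.38 and 10.11 at 8 h, then 9.22, 9.08 and 9.09 at 24 h. NCS values were 10.50, 10.44 and 10.49 at 4 h, 10.15, 10.18 and 10.20 at 8 h, then 8.90, 8.89 and 9.00 at 24 h. At 4 h the H2O2 libraries still overlapped the untreated ones, and at 8 h the treatments overlapped each other. The difference after H2O2 was -0.10 at 4 h (adjusted p = 0.259, limma) and -1.59 at 24 h (SE 0.07, adjusted p = 6.29e-13). After NCS it was -0.24 at 4 h (adjusted p = 0.0169) and -1.79 at 24 h (SE 0.07, adjusted p = 1.21e-13, limma). The NCS call at 4 h was lost without untreated replicate 3 (-0.22, adjusted p = 0.0625) or NCS 4 h replicate 2 (-0.22, adjusted p = 0.0665).

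CCNB1 and CCNB2 encode the mitotic partners of CDK1. CCNB1 had values of 12.02, 11.95 and 12.12 in untreated cells, of 11.62, 11.69 and 11.60 at 4 h, 10.72, 11.25 and 10.88 at 8 h, then 10.36, 10.22 and 10.24 at 24 h after H2O2, and of 11.14, 11.11 and 11.04, then 10.56, 10.71 and 10.65, then 10.07, 10.09 and 10.16 after NCS. CCNB2 had values of 10.29, 10.33 and 10.45 in untreated cells, of 10.11, 10.14 and 10.07 at 4 h, 9.28, 9.71 and 9.35 at 8 h, then 8.85, 8.68 and 8.71 at 24 h after H2O2, and of 9.67, 9.58 and 9.52, then 8.81, 8.83 and 8.95, then 8.31, 8.38 and 8.41 after NCS. For both genes every treated library was below every untreated one, and at 4, 8 and 24 h every NCS library was below every H2O2 library. The nearest values, for CCNB1 at 8 h, were 10.71 after NCS and 10.72 after H2O2. Between treatments at 24 h, the CCNB1 difference of 0.17 did not pass (adjusted p = 0.208, limma). The share of all genes with ranges so separated between treatments is not given here. CCNB1 fell, with differences of -0.39, -1.08 and -1.75 after H2O2 and of -0.93, -1.39 and -1.92 after NCS at 4, 8 and 24 h (SE 0.09, last adjusted p = 7.6e-12 and 2.18e-12, limma). CCNB2 fell likewise, with differences of -0.25, -0.91 and -1.61 after H2O2 and of -0.77, -1.49 and -1.99 after NCS (SE 0.08, last adjusted p = 8.95e-12 and 4.68e-13, limma). The smallest of these, CCNB2 at 4 h after H2O2, had an adjusted p of 0.0174 and was lost without untreated replicate 3 (-0.20, adjusted p = 0.0824), without H2O2 4 h replicate 3 (-0.23, adjusted p = 0.0564) and under quantile normalization (-0.20, adjusted p = 0.0552). In the library that stood apart both genes were the highest of their group, and without it their differences at 8 h after H2O2 were -1.23 and -1.04.

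The members that fell by over 1 differed in pace. After NCS, CCNB1 at 4 h had already made 48.4% of its difference of 24 h, CCNA2 39.7% and CCNB2 38.6%. CDK2 had made 26.2% and CDK1 13.4%, while CCNE2 was on the other side of its untreated mean. After H2O2 the shares at 4 h were 27.2% for CCNA2, 22.3% for CCNB1, 16.5% for CDK2, 15.6% for CCNB2, 8.6% for CCNE2 and 6.1% for CDK1. These shares describe the group means and were not tested.

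From 8 h to 24 h after H2O2, 8 members fell and 1 rose, against 23.2% and 19.4% of all genes. CCNE2 led with a difference of -1.48, followed by CCNA2 with -1.08 and CDK1 with -1.04 (SE 0.05, 0.09 and 0.07; adjusted p = 2.62e-13, 1.3e-08 and 5.22e-10, limma). Without H2O2 8 h replicate 2 these were -1.49, -0.92 and -0.93, and 10 members passed. CCND3, which had not fallen by 8 h, differed by -0.12 (adjusted p = 0.00713), a call that was lost without H2O2 8 h replicate 3 (-0.09, adjusted p = 0.0523) and under quantile normalization (-0.07, adjusted p = 0.123). CCND2 did not pass (-0.05, adjusted p = 0.743), though without H2O2 8 h replicate 2 it fell by 0.18 (adjusted p = 0.0345). From 4 h to 8 h after H2O2, 7 members fell and 2 rose, against 27.7% and 18% of all genes, and CCND2 made a rise of 0.98 (SE 0.09, adjusted p = 4.35e-08, limma). Without H2O2 8 h replicate 2 this rise was 1.11, and 9 members passed as before.

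After NCS, 7 members fell and 2 rose from 4 h to 8 h, against 7.5% and 6.16% of all genes. The largest of these falls was that of CCNE2 (-1.08, SE 0.05, adjusted p = 5.11e-10, limma). From 8 h to 24 h, 8 fell and 2 rose, against 15% and 14.9% of all genes, led by CDK1 with -1.24 and CCNA2 with -1.16 (adjusted p = 9.59e-11 and 7.42e-09, limma). The fall of CCNA2 from 4 h to 8 h (-0.32, adjusted p = 0.021) was lost without NCS 4 h replicate 1 or 2 or NCS 8 h replicate 1 or 3, with values between -0.32 and -0.30 and adjusted p-values between 0.0532 and 0.0747. The rise of CCND2 over the same interval (0.32, adjusted p = 0.0173) was lost without NCS 4 h replicate 2 or NCS 8 h replicate 1 or 2, with values between 0.29 and 0.30 and adjusted p-values between 0.0616 and 0.068.

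H2O2 and NCS were next compared at the same time. The untreated libraries do not enter these differences, though in the single fit they still enter the estimate of spread. At 4 h, CCNB1, CCNB2 and CCNA2 were lower after NCS, while CCNE2 and CCND1 were lower after H2O2. The difference, H2O2 minus NCS, was 0.54 for CCNB1 (SE 0.09, adjusted p = 6.09e-05, limma), 0.52 for CCNB2 (SE 0.08, adjusted p = 4.12e-05) and 0.39 for CCNA2 (SE 0.09, adjusted p = 0.00135). It was -0.29 for CCNE2 (SE 0.05, adjusted p = 0.000147) and -0.15 for CCND1 (SE 0.02, adjusted p = 1.95e-06). In all, 6 of 10 members differed at 4 h, where 44.4% of all genes did, which is not far above the background. The sixth was CDK2 (0.10, adjusted p = 0.0366), whose call was lost without H2O2 4 h replicate 2 or 3 or NCS 4 h replicate 2 or 3 (0.08 to 0.11, adjusted p between 0.0508 and 0.159) and under quantile normalization (0.09, adjusted p = 0.0834). CDK1, at 0.14, did not pass (adjusted p = 0.0937), but it passed with aligned medians, among genes with a mean of at least 5 and in a fit of both groups alone (adjusted p between 0.0318 and 0.0415).

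At 8 h, 5 members differed against 34.1% of all genes. CCND2 was higher after H2O2 by 0.79 (SE 0.09, adjusted p = 1.06e-06, limma), CCNB2 by 0.59 (SE 0.08, adjusted p = 1.76e-05), CCNE2 by 0.55 (SE 0.05, adjusted p = 2.46e-07) and CCNB1 by 0.31 (SE 0.09, adjusted p = 0.00932). Without the library that stood apart these were 0.93, 0.45, 0.56 and 0.16, and 4 members passed. CCNA2, at 0.23, did not pass (adjusted p = 0.0546). It passed with aligned medians (0.25, adjusted p = 0.00462), among genes with a mean of at least 5 (adjusted p = 0.0116) and without H2O2 8 h replicate 1 or 3 (0.31, adjusted p = 0.0169 and 0.017), while without H2O2 8 h replicate 2 it was at 0.07 (adjusted p = 0.35). In a fit of the 2 groups alone, CCNB1 did not pass (adjusted p = 0.142). INTS8 differed in the other direction from CCNE2 at this time (-0.28, adjusted p = 0.000427). CCND1 was lower after H2O2 by a small amount (-0.06, adjusted p = 0.0253), a call that was lost without H2O2 8 h replicate 2 or 3 or NCS 8 h replicate 1 (-0.05 to -0.04, adjusted p between 0.0787 and 0.116), with aligned library medians (-0.03, adjusted p = 0.156) and under quantile normalization (-0.02, adjusted p = 0.499).

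At 24 h, 3 members differed against 21.9% of all genes, a share near the background, and all 3 were higher after H2O2. CCNB2 was higher by 0.38 (SE 0.08, adjusted p = 0.00193, limma), CCNA2 by 0.31 (SE 0.09, adjusted p = 0.015) and CDK1 by 0.20 (SE 0.07, adjusted p = 0.0407). Without H2O2 24 h replicate 1, CCNB2 alone passed, CCNA2 was at 0.23 (adjusted p = 0.0943) and CDK1 at 0.15 (adjusted p = 0.178). The CDK1 call was lost as well without H2O2 24 h replicate 2 or 3 or NCS 24 h replicate 1 or 2, at adjusted p-values between 0.0527 and 0.131, under quantile normalization (0.17, adjusted p = 0.109) and without the mean-variance trend (adjusted p = 0.0598). For the members that did not pass, the 95% confidence interval of the difference ran from -0.11 to 0.11 for CCNE2, from -0.12 to 0.04 for CDK2, from -0.06 to 0.02 for CCND1, from -0.09 to 0.16 for CCNE1, from -0.10 to 0.04 for CCND3, from -0.02 to 0.35 for CCNB1 and from 0.04 to 0.40 for CCND2. CCND2 passed with aligned medians (0.19, adjusted p = 0.0347), among genes with a mean of at least 5 (0.22, adjusted p = 0.0202) and in a fit of both groups alone (adjusted p = 0.00971), and in that fit CCNB1 passed too (0.17, adjusted p = 0.04). The direction for CCND1 turned under quantile normalization, where it was 0.12 higher after H2O2 (adjusted p = 0.000214).

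**Figure D3:**
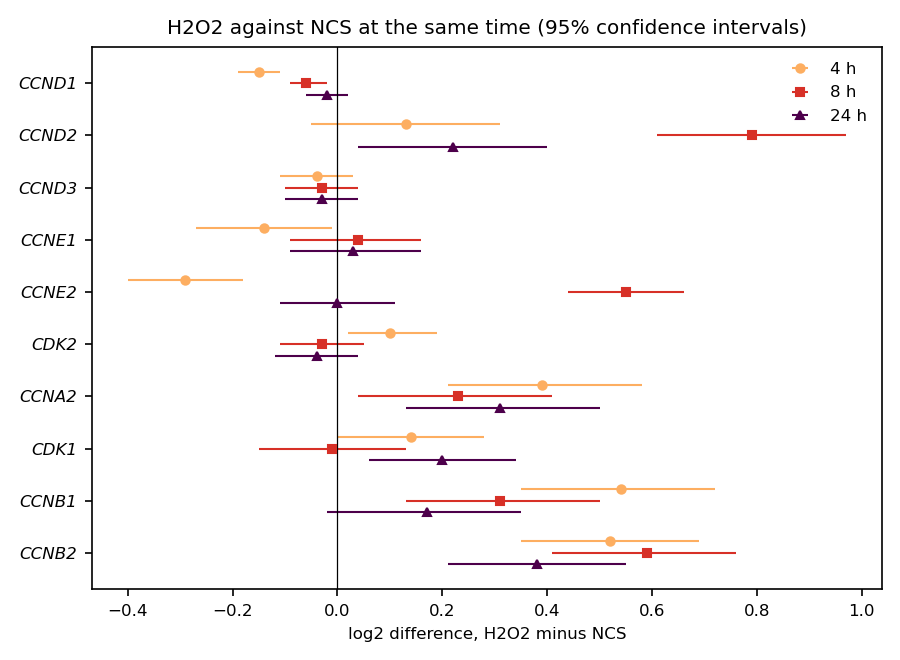
Log2 difference H2O2 minus NCS for each gene at 4 h (orange circles), 8 h (red squares) and 24 h (purple triangles), with 95% confidence intervals from limma. CCNE2 lies at -0.29 at 4 h, at 0.55 at 8 h and at 0 at 24 h, and CCND2 stands out at 8 h at 0.79.

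Whether the difference between treatments itself changed with time was tested as an interaction in the same fit. The interval from 4 h to 24 h was planned, and the other intervals were added after the data were seen. Over the planned interval the difference shifted by 0.29 for CCNE2 (SE 0.07, adjusted p = 0.00387, limma). For CCND2 it shifted by 0.08, which did not pass (SE 0.12, adjusted p = 0.635, limma). From 4 h to 8 h the difference shifted upwards by 0.84 for CCNE2 (SE 0.07, adjusted p = 1.39e-07, limma) and by 0.66 for CCND2 (SE 0.12, adjusted p = 0.000373). From 8 h to 24 h it shifted by -0.55 for CCNE2 and by -0.58 for CCND2 (adjusted p = 4.41e-05 and 0.00208). Counts of members that passed were 3 of 10 from 4 h to 8 h, 2 of 10 from 8 h to 24 h and 4 of 10 from 4 h to 24 h, beside 32.7%, 21.4% and 39.4% of all genes, shares near the background. Without H2O2 8 h replicate 2, the first of these counts was 7, with CCNA2, CCNB1, CDK1 and CDK2 added, and the second 4, with CCNA2 and CDK1 added.

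Other genes of the engine were read from 7 lists of 79 genes. At 24 h the shares of all genes that rose and fell were 20.2% and 19.9% after H2O2 and 19.6% and 18.4% after NCS, with a median of 0, and the list counts stand beside these. Of 7 CDK inhibitors, 2 rose and 4 fell at 24 h after each treatment, with median differences of -0.32 after H2O2 and -0.25 after NCS. CDKN1A, which encodes p21, rose by 1.21, 1.62 and 1.57 at 4, 8 and 24 h after H2O2 and by 1.58, 1.47 and 1.48 after NCS (SE 0.07, last adjusted p = 3.25e-12 and 8.11e-12, limma). CDKN2B, the CDK4 and CDK6 inhibitor p15, was the other to rise, by 0.81 and 0.70 at 24 h. CDKN2C, the inhibitor p18, fell (-1.80 and -1.99), as did CDKN1B, the inhibitor p27 (-0.42 and -0.52).

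All 5 genes that set or remove inhibitory phosphates on these CDKs fell at 24 h after both treatments, with medians of -1.17 after H2O2 and -1.39 after NCS. The kinases WEE1 and PKMYT1, which place these phosphates, fell after H2O2 (-1.10 and -1.17). The phosphatases CDC25A and CDC25C, which remove them, fell too (-1.59 and -1.57, adjusted p = 4.98e-14 and 1.76e-10, limma). At 4 h, 3 of the 5 had fallen after each treatment: WEE1 (-0.42 after H2O2 and -0.80 after NCS), CDC25B (-0.38 and -0.73) and CDC25C (-0.38 and -0.85). Of all genes, 19.7% fell at 4 h after H2O2 and 9.72% after NCS. PKMYT1 differed by -0.06 after H2O2 (adjusted p = 0.424) and rose by 0.29 after NCS (adjusted p = 0.00107, limma), and CDC25A differed by -0.02 and -0.07 and passed in neither.

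Of 20 pocket proteins, E2F factors and members of DREAM and its activators, 15 fell and 2 rose at 24 h after H2O2, and 18 fell and 1 rose after NCS, with medians of -0.39 and -0.46. FOXM1 and MYBL2, activators of mitotic genes, fell after H2O2 (-1.43 and -1.49) and NCS (-1.47 and -1.63; SE 0.05, adjusted p = 2.64e-14, 1.17e-14, 1.55e-14 and 3.12e-15, limma). E2F1 fell as well (-1.44 and -1.45). The 2 that rose after H2O2 were E2F7, by 0.14 (adjusted p = 0.00703, limma), and LIN37, a core DREAM subunit. LIN37 rose by 0.13 after each treatment (adjusted p = 0.0353 and 0.0338, limma).

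Of 19 genes for cyclin destruction, 12 fell and 1 rose at 24 h after H2O2, and 12 fell and 3 rose after NCS, with medians of -0.24 and -0.27. CDC20, an activator of the anaphase-promoting complex that destroys cyclin B, fell (-2.14 and -2.58), and so did the E2 enzyme of the complex, UBE2C (-1.69 and -2.13). CCNF, the F-box protein cyclin F, fell to a like extent (-1.71 and -1.81). FBXW7, which marks cyclin E for destruction, rose by 0.22 and 0.31.

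Of 7 further kinases and CDK-binding genes, 3 fell after each treatment at 24 h, and 0 rose after H2O2 and 2 after NCS, with medians of -0.09 and -0.03. The 3 that fell were CDK4 (-0.40 and -0.65) and the CDK-binding CKS1B (-0.89 after H2O2, and to 50.1% of its untreated level after NCS) and CKS2 (-0.84 and -1.10). CDK6 differed by 0.10 (adjusted p = 0.0661) after H2O2 and rose by 0.11 (adjusted p = 0.0371) after NCS.

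Of 11 cyclins and kinases of transcription, 2 rose and 3 fell at 24 h after H2O2, and 1 rose and 3 fell after NCS, with medians of -0.01 and -0.03. CCNL2, a cyclin tied to splicing, rose by 0.33 and 0.29, while CCNC and CDK19 of the Mediator kinase module fell (-0.20 and -0.10 after H2O2, -0.11 and -0.28 after NCS). At 4 h after H2O2 this list had 2 higher and 6 lower genes, against 26.2% and 19.7% of all genes. CDK12 was at -0.51 and CDK9 at -0.48, picked after their values were seen. At 8 h after H2O2 it had 6 higher and 2 lower genes, against 18.8% and 18.6% of all genes. Of 10 other cyclins, 3 rose and 1 fell after H2O2 and 2 rose and 1 fell after NCS, with medians of 0.03 and 0. CCNG1, a p53 target, and CCNG2 were the largest rises, by 0.41 and 0.50 after H2O2 and by 0.58 and 0.45 after NCS (adjusted p = 2.12e-08, 1.84e-06, 1.43e-10 and 6.96e-06, limma). At 4 h after NCS, CCNG1 rose by 0.29 while CCNG2 fell by 0.69 (adjusted p = 1.05e-05 and 2.02e-07, limma).

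**Figure D4:**
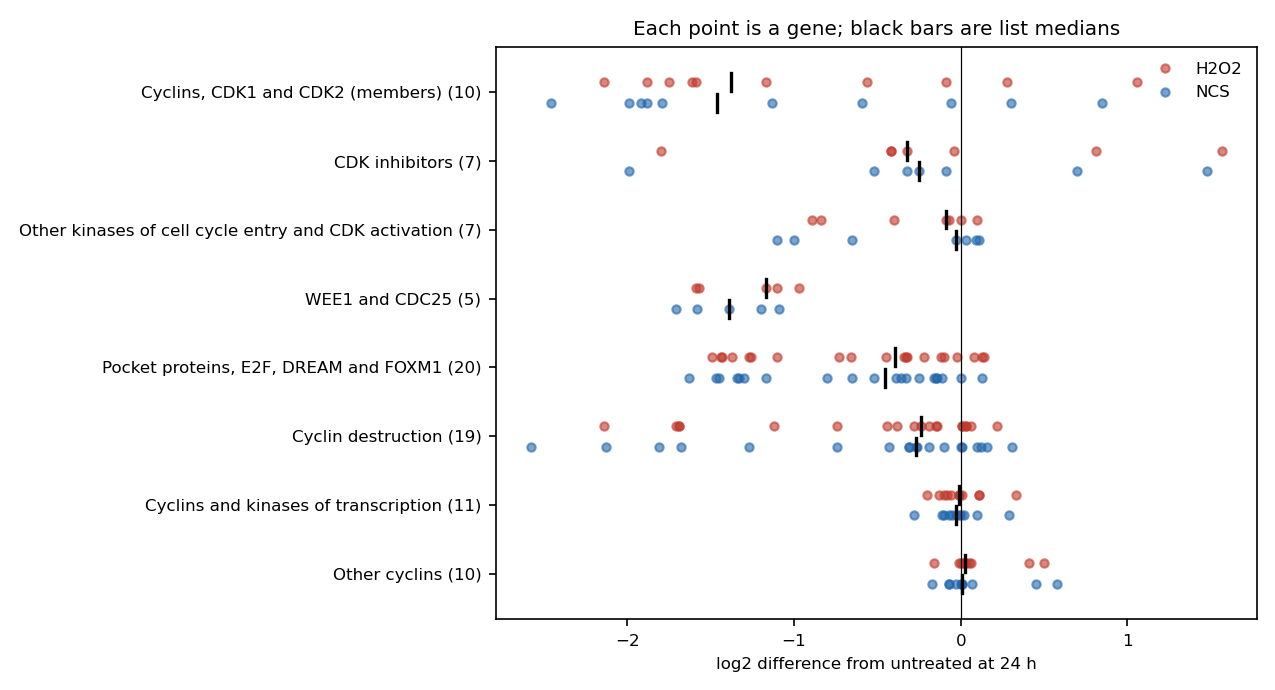
Log2 difference from untreated cells at 24 h, with each point a gene, H2O2 in red above NCS in blue for each list, list sizes in parentheses and list medians as black bars. The 10 members have medians of -1.38 and -1.46, the 5 WEE1 and CDC25 genes -1.17 and -1.39, and the 10 other cyclins 0.03 and 0.

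Across the 21 libraries, the genes whose values ran most like each member were read by Pearson's r among 11681 genes with a mean of at least 5. These correlations share the treatments and the libraries and are given as a description. CCNA2 ran with the condensin gene SMC4 (r = 0.996), the spindle motor KIF11 (0.992) and IQGAP3 (0.992). CCNB1 ran with the spindle checkpoint kinase gene BUB1 (0.996), DEPDC1 (0.993) and the importin gene KPNA2 (0.992). CCNB2 ran with the mitotic kinase genes PLK1 (0.996) and NEK2 (0.992) and with DEPDC1 (0.99). CCNE2 ran instead with ATAD2 (0.992), with MCM4, a subunit of the replicative helicase (0.989), and with WDR76 (0.988). CDK1 ran with the histone gene H2AFV (0.996), HMGB1 (0.994) and SHCBP1 (0.993). CDK2 ran with ANLN (0.995), which encodes anillin of the contractile ring, the lamin gene LMNB2 (0.992) and WHSC1 (0.991). The 10 pairs among CCNA2, CCNB1, CCNB2, CDK1 and CDK2 had r between 0.892 and 0.986. CCND1 was most like CLCN3 (0.971), PPFIBP1 (0.97) and ARHGAP22 (0.97), and CCND2 was most like GFPT1 (0.978), RNF41 (0.968) and SGTB (0.962). CCNE1 was most like MYO19 (0.971), AKT1 (0.962) and SUN2 (0.958), and CCND3 was most like ARPC4 (0.876), PSMC3 (0.866) and BOK (0.865).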

How the data were processed

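RNA from untreated hTERT-HPNE cells and from cells 4, 8 and 24 h after 300 μM H2O2 or 400 ng/ml NCS was sequenced from stranded mRNA libraries, 3 per group. The authors aligned reads with HISAT2 (genome hg19, per the submitters' processing notes), counted them with HTSeq and deposited log2 values made with DESeq2's rLog transformation, which normalizes for library size and shrinks differences of genes with few reads. Tool versions, the annotation and the counting settings are not given in the sources used here.

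The values were used as deposited. The 3674 genes at 0 in every library were left out. The 7 groups were fitted with limma 3.58.1 in R 4.3.3 (mean-variance trend, Benjamini-Hochberg adjustment over 19694 genes) for 14 planned and 2 later comparisons. Exact permutation tests were two-sided. The members and gene lists were chosen with earlier results of these data known. Named genes are the members, the largest rises and falls of each list at 24 h (however small) with CDKN1A, the 3 genes most correlated with each member, and genes that overlap a member; CDC25B, CDK9 and CDK12 were added after their values were seen.

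Deviations of libraries with the same replicate number had correlations from -0.11 to 0.21, and in some comparisons every pair was positive. None of 13 comparisons had every pair over 0.1, the limit set for pairing, so the number was a block in an alternative fit only. A weak shared deviation is not excluded by this rule. Other alternatives were aligned library medians, quantile normalization, a mean of at least 5, no trend, the groups compared only, fold limits, and each library left out. Exon overlaps came from GENCODE 29 (GRCh38) and promoters from RefSeq. Python 3.11.15 with pandas 2.3.3 and matplotlib 3.10.9 was used for the rest.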

Additional observations from a re-analysis of the deposited data

Results flagged for a closer look

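In a test of the interaction of treatment and time (limma, Benjamini-Hochberg over all genes), the difference H2O2 minus NCS changed between times for 5 members; 4 h against 24 h was planned, and the other intervals were added after the data were seen. CCNE2 changed by 0.84 from 4 h to 8 h (SE 0.07, adjusted p = 1.39e-07), by -0.55 from 8 h to 24 h (SE 0.07, adjusted p = 4.41e-05) and by 0.29 from 4 h to 24 h (SE 0.07, adjusted p = 0.00387): the gene was lower after H2O2 at 4 h and higher at 8 h, and the 95% confidence interval at 24 h ran from -0.11 to 0.11. CCND2 changed by 0.66 from 4 h to 8 h (SE 0.12, adjusted p = 0.000373) and by -0.58 from 8 h to 24 h (SE 0.12, adjusted p = 0.00208), where its rise over untreated cells at 8 and 24 h was 1.11 and 1.06 after H2O2 and 0.32 and 0.85 after NCS. Without H2O2 8 h replicate 2, the library that stood apart, these changes were 0.79 and -0.71 for CCND2 and 0.85 and -0.56 for CCNE2. Without it CCNA2 (-0.32, adjusted p = 0.00141), CCNB1 (-0.38, adjusted p = 0.00106), CDK1 (-0.26, adjusted p = 0.00566) and CDK2 (-0.19, adjusted p = 0.00297) also passed from 4 h to 8 h, and CCNA2 (0.24, adjusted p = 0.0141) and CDK1 (0.31, adjusted p = 0.00191) from 8 h to 24 h.

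CCND1 changed by 0.10 from 4 h to 8 h (SE 0.03, adjusted p = 0.00752) and by 0.13 from 4 h to 24 h (SE 0.03, adjusted p = 0.000446). CCNB1 changed by -0.37 from 4 h to 24 h (SE 0.12, adjusted p = 0.0241), and the call was lost without H2O2 4 h replicate 2, H2O2 24 h replicate 2, NCS 4 h replicate 3 or NCS 24 h replicate 3 (-0.34, adjusted p between 0.0552 and 0.0564). CDK2 changed by -0.14 from 4 h to 24 h (SE 0.05, adjusted p = 0.0454), and this call was lost when any of 8 libraries was left out (-0.16 to -0.11, adjusted p between 0.0509 and 0.128). With all libraries kept, the CDK2 call was lost under quantile normalization (adjusted p = 0.0629) and without the mean-variance trend (adjusted p = 0.0554). No sample of a group was tested for standing apart, since groups hold 3 libraries.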

How the results depend on the processing

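Of the 160 member differences, none that passed in the main fit turned direction under any setting. Over the settings that kept all libraries, 918 recalculated differences kept direction and call, 15 lost the call, 16 gained it and 11 turned sign. With a library left out these numbers were 1046, 44, 11 and 39. The cause was not tested. CCND1 between H2O2 and NCS at 24 h, at -0.02 with adjusted p = 0.602 in limma, turned to 0.12 with adjusted p = 0.000214 under quantile normalization. The other turned signs belonged to differences near 0 that did not pass: with aligned medians the change of the treatment difference for CCND1 from 8 h to 24 h (-0.01) and for CCND3 from 4 h to 24 h (-0.015), CCNE2 between treatments at 24 h (-0.026) and CDK1 between treatments at 8 h (0.016); under quantile normalization CCND2 in NCS at 4 h (0.0078), CCND3 from 4 h to 8 h in NCS (0.016), CCNE2 between treatments at 24 h (-0.038) and the change of the treatment difference for CCND3 from 4 h to 8 h (-0.0089) and from 8 h to 24 h (0.064) and for CDK2 from 8 h to 24 h (0.0063).

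With each library left out, signs turned for 18 differences, none of which passed with all libraries. Against untreated, the ranges were -0.034 to 0.064 for CCND2 in NCS at 4 h, -0.0032 to 0.032 and -0.0024 to 0.054 for CCND3 in H2O2 at 4 and 8 h, and -0.080 to 0.012 for CCNE1 in H2O2 at 4 h. Between times they were -0.18 to 0.032 for CCND2 in H2O2 from 8 h to 24 h, and -0.020 to 0.037 in H2O2 and -0.029 to 0.024 in NCS for CCND3 from 4 h to 8 h. Between treatments they were -0.020 to 0.066 and -0.017 to 0.079 for CCNE1 at 24 and 8 h, -0.022 to 0.022 for CCNE2 at 24 h and -0.11 to 0.069 for CDK1 at 8 h. For the change of the treatment difference they were, from 8 h to 24 h, -0.26 to 0.0063 for CCNB1, -0.032 to 0.025 for CCND3, -0.058 to 0.051 for CCNE1 and -0.039 to 0.046 for CDK2; from 4 h to 8 h, -0.065 to 0.15 for CCNB2 and -0.017 to 0.040 for CCND3; and from 4 h to 24 h, -0.019 to 0.035 for CCND3.

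A limit on the log2 difference lowers counts by construction. Over 0.58 and over 1, the members passing were 1 and 0 in H2O2 at 4 h, 5 and 3 in H2O2 at 8 h, 3 and 0 in NCS at 4 h, 5 and 3 in NCS at 8 h, 0 and 0 between treatments at 4 h, 2 and 0 at 8 h, 0 and 0 at 24 h, 3 and 0 from 4 h to 8 h and 5 and 3 from 8 h to 24 h in H2O2, 2 and 1 and then 3 and 2 in NCS, and 0 over 1 for each change of the treatment difference. With the groups compared only, 3 members passed between treatments at 8 h and 5 at 24 h. With a library left out, 1 to 3 members passed between treatments at 24 h (1 without H2O2 24 h replicate 1), 2 to 4 for the change from 4 h to 24 h (2 without H2O2 4 h replicate 2, NCS 4 h replicate 3 or NCS 24 h replicate 3), and 3 to 7 from 4 h to 8 h and 2 to 4 from 8 h to 24 h (7 and 4 without H2O2 8 h replicate 2). With the replicate block, the number in the labels used as a pair, CCNA2 between treatments at 8 h (0.23, adjusted p = 0.0467; unblocked without H2O2 8 h replicate 2, 0.07 and adjusted p = 0.35) and CCND1 in NCS at 4 h (0.05, adjusted p = 0.0255) gained a call, 6 members passed in NCS at 4 h and between treatments at 8 h, and no call was lost.

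The rLog values shrink differences and hold no counts, so folds are smaller than those of counts and no depth-based limit can be given. Replicates are labelled biological, and the labels do not say whether cultures were handled together.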
